A study of Mus musculus with 8 samples.

Results

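The integrin subunits and laminin chains were followed in osteocyte-enriched fractions of bone. Osteocytes are the cells that sit inside mineralized matrix. Members were the protein-coding genes whose mouse symbol begins with Itga or Itgb followed by a number and an optional letter, or by l, m, v, x, d or e, or with Lama, Lamb or Lamc followed by a number. There were 38 of them among the 43346 genes counted, of which 37 are described and counted below, 27 integrin subunits (18 α and 9 β) and 10 laminin chains (5 α, 3 β and 2 γ). The rule itself used no measured value, but members, roles and lists were chosen with earlier results of these data known.

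RNA was sequenced from the frontal bone (3 libraries, numbered 1, 2 and 4) and the parietal bone (2 libraries, numbered 2 and 4), both flat bones of the skull vault (calvaria), and from the femur (3 libraries, numbered 1, 2 and 4), a long bone of the leg. The bones came from C57BL/6 mice aged 12 weeks, with no treatment and no altered gene, and the study set out to compare osteocyte transcriptomes between these bones. The labels give neither the sex nor the number of animals, nor whether animals were pooled. A p-value here therefore reflects how much these 8 libraries vary, and part of that variation may be technical. Library totals ran from 6259229 to 13461622 gene counts. Levels are given as CPM (counts scaled to a common library total, on the TMM scale, which keeps a few very abundant genes from moving the rest), listed by library number within each bone.

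Each fraction held RNA of other cells, and the bones differed in it. Summed levels of 9 osteocyte markers were 731 to 1415 CPM in calvarial libraries, against 23860 to 49450 CPM in femur libraries. In calvaria, Dmp1 averaged 528 ± 99.8 CPM (SD, n = 5), against 35310 ± 13670 CPM in femur (SD, n = 3) and Sost averaged 24.2 ± 4.24 CPM (SD, n = 5), against 306 ± 114 CPM in femur (SD, n = 3), so osteocyte markers were present in every bone, and 8 of the 9 were lower in calvaria. Markers of red cell precursors, granulocytes, monocytes and lymphocytes leaned the other way, with 12 of 12 erythroid and 10 of 14 granulocyte markers higher in calvaria. For marker counts here and below, 29.6% of all genes tested were higher and 31.4% lower in calvaria. In bulk RNA, fewer cells of a type and less RNA per cell cannot be told apart.

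Integrins are receptors made of an α and a β subunit that span the cell membrane and tie the actin skeleton to matrix or to proteins on other cells. The β2 and β7 integrins and the α4 subunit serve white blood cells, αIIb with β3 serves platelets, αv with β3 serves osteoclasts, and the β1 integrins are the general receptors for collagens, laminins and fibronectin. Laminins are proteins of basement membranes, each with an α, a β and a γ chain, and are laid down around vessels, nerves, muscle and fat cells and under epithelia. Osteocytes are known to sense load through integrin attachments along their processes.

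Promoters of 24 of the 37 members were in the RefSeq table (build GRCm38.p6, 250 bases before to 50 after the start). The 4 printed here belong to members that results below turn on. Itgam is the α subunit with the highest mean level in calvaria, Itgb2l is a leukocyte subunit that was higher in calvaria, and Itga2 and Lamb2 are the integrin subunit and the laminin chain with the largest differences among members in that table. Capitals mark GAGGAA or TTCCTC, a core of the blood cell factor PU.1, and GGGCGG or CCGCCC, the GC box.
Itgam, chr7:128062390-128062689, plus strand: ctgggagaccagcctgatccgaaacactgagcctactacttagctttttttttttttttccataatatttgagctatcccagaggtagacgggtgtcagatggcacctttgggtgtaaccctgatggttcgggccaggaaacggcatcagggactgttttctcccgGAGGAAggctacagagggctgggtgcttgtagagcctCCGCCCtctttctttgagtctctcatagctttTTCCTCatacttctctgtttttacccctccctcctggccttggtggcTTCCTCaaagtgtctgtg
Itgb2l, chr16:96443565-96443864, minus strand: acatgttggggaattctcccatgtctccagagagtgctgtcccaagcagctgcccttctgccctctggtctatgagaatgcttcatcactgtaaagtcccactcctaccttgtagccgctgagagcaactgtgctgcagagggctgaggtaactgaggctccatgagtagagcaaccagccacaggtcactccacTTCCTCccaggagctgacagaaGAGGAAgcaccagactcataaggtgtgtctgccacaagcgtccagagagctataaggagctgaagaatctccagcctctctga
Itga2, chr13:114932051-114932350, minus strand: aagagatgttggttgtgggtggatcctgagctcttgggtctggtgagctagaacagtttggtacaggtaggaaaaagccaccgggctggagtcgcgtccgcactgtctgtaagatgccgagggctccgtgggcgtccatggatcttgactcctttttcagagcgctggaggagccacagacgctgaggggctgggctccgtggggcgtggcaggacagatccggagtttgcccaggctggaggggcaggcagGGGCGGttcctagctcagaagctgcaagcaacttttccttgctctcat
Lamb2, chr9:108479612-108479911, plus strand: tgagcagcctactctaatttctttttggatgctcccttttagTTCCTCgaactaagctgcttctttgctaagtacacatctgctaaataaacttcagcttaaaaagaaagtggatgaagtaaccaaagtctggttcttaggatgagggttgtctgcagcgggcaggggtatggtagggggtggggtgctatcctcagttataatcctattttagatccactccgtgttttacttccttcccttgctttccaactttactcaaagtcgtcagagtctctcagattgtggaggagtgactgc
Itgam holds 3 PU.1 cores and 1 GC box in this window, Itgb2l holds 2 PU.1 cores, Itga2 holds 1 GC box and Lamb2 holds 1 PU.1 core, with no overlap between the motifs. GAGGAA (searched on both strands) stood in 13 of the 24 promoters, against 28.3% of all 27025 promoters of the same length. It was in 3 of 5 leukocyte, 4 of 13 matrix integrin and 5 of 5 laminin promoters. GGGCGG stood in 11 of 24 (35.9% of all promoters), TGTGGT, a core of RUNX factors, in 2 of 24 (16.9%) and TATAAA in 0 of 24 (14.2%). A match is a description of these letters and not a binding site.

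Calvarial bones were set against femur with frontal and parietal bone weighted equally. Of 34 members that passed the filter on low counts, 4 were higher and 18 were lower in calvaria at an adjusted p under 0.05. Over all 15511 genes tested, 29.6% were higher and 31.4% were lower, 61.0% in all. The members' median log2 fold change was -1.04, beside 0.01 for all genes. All 4 members that were higher are leukocyte integrins, and the 18 that were lower are 10 matrix integrin subunits, Itgb3 and 7 laminin chains. Among the called members, calvarial and femur libraries did not overlap for Itga4 and for the 18 that were lower. The share of all genes without overlap was not worked out, so this only describes these members. Itgae, Itgb6 and Lama1 had too few counts to be tested, with at most 1.65 CPM in any library. Itga7 reached the filter level of 1.09 CPM in 1 calvarial and 3 femur libraries, so it was tested only because of its level in femur. Exons of the tested members were longer than those of all tested genes, with medians of 6.59 and 4.01 kb. With a trend over length and GC content removed from the counts, 7 members were higher and 14 lower. The members' median was then -0.35, beside 0.10 for all genes. The calls of Itga9 (-0.64, adjusted p = 0.0502), Itga10 (-0.20, 0.458), Lama2 (-0.45, 0.158) and Lama5 (-0.25, 0.588) were lost. Itgb7 (0.63, adjusted p = 0.00408), Itgb5 (0.56, 0.00535) and Lamb3 (1.21, 0.0019) were then called higher, and Itgb5 and Lamb3 are not leukocyte integrins.

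**Figure D1:**
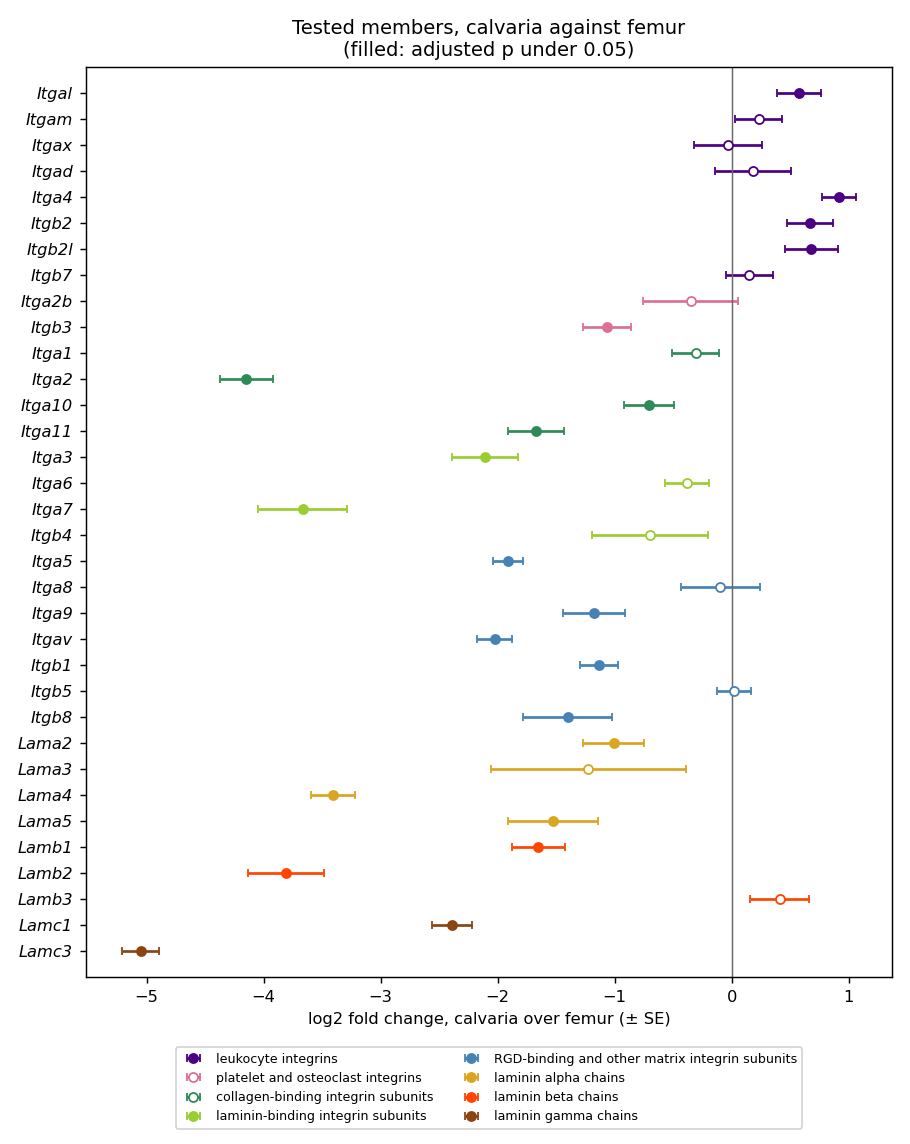
Log2 fold changes of the 34 tested members in calvaria over femur (x axis), grouped by role from top to bottom, with bars of 1 standard error. Filled points passed an adjusted p under 0.05: 4 leukocyte integrins lie to the right of 0, and 18 other members lie to the left, down to -5.05 for Lamc3.

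In the main fit, the only members called higher in calvaria were leukocyte integrins. Of 8 tested, 4 were higher in calvaria, with a median log2 fold change of 0.40 over the 8. Over all genes tested, 29.6% were higher. Itga4 encodes α4, which pairs with β1 or β7, binds VCAM-1 and fibronectin, and holds blood cell precursors in the marrow. Its level was 53.3, 53.2 and 72.3 CPM in frontal bone and 40.1 and 43.7 CPM in parietal bone, against 25.3, 27.6 and 26.3 CPM in femur. Every calvarial library lay above every femur library, and the difference was a log2 fold change of 0.92 ± 0.14 and an adjusted p of 0.000167. Part of this value is uncertain, because 8.04% of the exon bases of Itga4 lie under Cerkl on the other strand and the strand setting of the counts is not given.

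The β2 integrins of leukocytes had wider spreads. Itgal encodes αL, which with β2 binds ICAM proteins on other cells. It had 76.5, 62.5 and 60.9 CPM in frontal bone and 52.5 and 33.5 CPM in parietal bone, against 28.2, 33.7 and 45.6 CPM in femur, higher in calvaria with a log2 fold change of 0.58 ± 0.19 and an adjusted p of 0.0211, although parietal library 4 lay below femur libraries 2 and 4. Itgb2, the β2 subunit shared by the leukocyte α subunits, had 330.1, 283 and 309 CPM in frontal bone and 257 and 185 CPM in parietal bone, against 117, 148 and 226 CPM in femur. Frontal libraries all lay above femur, parietal libraries overlapped femur library 4, and the difference was a log2 fold change of 0.67 ± 0.20 and an adjusted p of 0.0112. Itgb2l encodes a β2-like protein of mouse neutrophils for which no α partner is known. It had 169, 157 and 155 CPM in frontal bone and 149 and 101 CPM in parietal bone, against 52.1, 89.8 and 123 CPM in femur, with the same order of bones and a log2 fold change of 0.68 ± 0.23 and an adjusted p of 0.0224. These 3 calls were lost when single libraries were left out. Without parietal library 2, Itgal was at 0.38 (adjusted p = 0.119), Itgb2 at 0.53 (0.0568) and Itgb2l at 0.52 (0.102). Without femur library 2 they were at 0.52 (0.0843), 0.59 (0.0575) and 0.69 (0.0644), and without femur library 1, Itgal was at 0.41 (0.096) and Itgb2l at 0.39 (0.0654).

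The other leukocyte subunits did not pass the test. Itgam encodes αM, the complement receptor subunit of neutrophils and macrophages, and had 318, 305 and 314 CPM in frontal bone and 263 and 202 CPM in parietal bone, against 151, 220.3 and 317 CPM in femur. Femur library 4 was as high as the frontal libraries, with a log2 fold change of 0.23 ± 0.20 and an adjusted p of 0.337. Without femur library 4 it was 0.53 (adjusted p = 0.0164), and without femur library 1 it was -0.02 (0.909). Of the exon bases of Itgam, 68.7% lie under Gm49368, an annotated gene on the same strand that is not in the count table. Reads of these shared bases therefore cannot be divided between Itgam and Gm49368 here. Itgb7, the β subunit of gut-homing lymphocytes, had 57.3, 51.2 and 36.4 CPM in frontal bone and 32.9 and 33.5 CPM in parietal bone, against 26.3, 33.4 and 48.2 CPM in femur, with a log2 fold change of 0.15 ± 0.20 and an adjusted p of 0.545. Itgad, which encodes αD, had 9.44, 5.83 and 10.7 CPM in frontal bone and 2.6 and 5.82 CPM in parietal bone, against 6.36, 3.59 and 6.07 CPM in femur, with a log2 fold change of 0.18 ± 0.33 and an adjusted p of 0.651. Itgad shares 26.5% of its 37-base stretches, the read length, with Itgax and with overlapping models, so its counts and those of Itgax are uncertain. Itgax, the αX subunit of dendritic cells and macrophages, had 2.15 to 5.06 CPM in calvarial and 3.44 to 4.43 CPM in femur libraries. Itgae, the αE subunit of lymphocytes within epithelia, had 0.306 to 1.65 CPM in calvarial and 0.688 to 0.944 CPM in femur libraries.

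**Figure D2:**
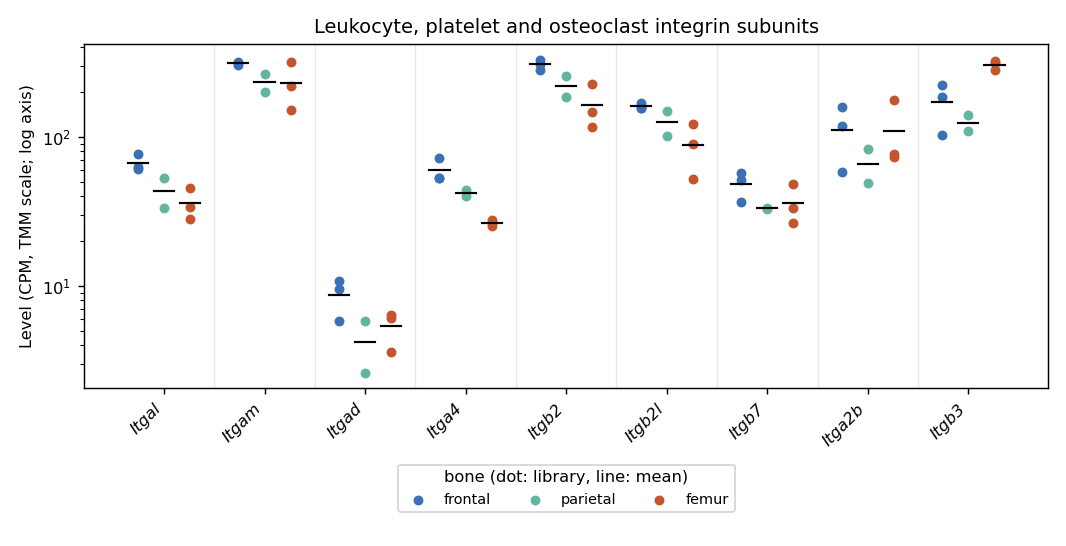
Levels of the leukocyte, platelet and osteoclast integrin subunits whose mean reaches 5 CPM in a bone (y axis, CPM on a log scale), each dot being a library and each line a bone's mean, with frontal and parietal bone left of femur. Itga4 is higher in every calvarial library than in any femur library, Itgb3 is lower, and the other subunits overlap between calvaria and femur.

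Markers of white blood cells were mostly higher in calvaria, while 4 of the 8 tested leukocyte subunits were. Median log2 fold changes were 1.33 for granulocyte, 0.75 for monocyte and macrophage, 2.01 for B cell and 1.63 for T and NK cell markers. The median of the leukocyte subunits was 0.40. Of 6 dendritic cell markers, 3 were higher and 1 was lower. Summed granulocyte markers were 60600 to 91290 CPM in calvarial libraries, against 18830 to 46230 CPM in femur libraries, with femur library 4 the highest of its bone. Summed monocyte and macrophage markers were 12450 to 18330 CPM in calvaria, against 3148 to 5864 CPM in femur (9 of 11 tested genes higher). B cell markers summed to 787 to 998 CPM in calvaria, against 237 to 333 CPM in femur (8 of 9 higher), and markers of T and NK cells to 216 to 287 CPM, against 64.6 to 99.2 CPM (7 of 10 higher). The part of these cells in the levels of the integrins was not tested.

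Of the platelet and osteoclast subunits, Itgb3 was lower in calvaria and Itga2b did not pass the test. Itga2b encodes αIIb, the platelet fibrinogen receptor subunit, and had 158, 117 and 58 CPM in frontal bone and 82.4 and 48.9 CPM in parietal bone, against 73.6, 76.9 and 176 CPM in femur. Libraries within each bone differed by more than the bones did, with a log2 fold change of -0.35 ± 0.41 and an adjusted p of 0.484. Itgb3 encodes β3, which pairs with αIIb in platelets and with αv in osteoclasts and other bone cells. It had 224, 185 and 103 CPM in frontal bone and 139 and 109.9 CPM in parietal bone, against 312, 281 and 324 CPM in femur. Every calvarial library lay below every femur library, with a log2 fold change of -1.07 ± 0.20 and an adjusted p of 0.000722. Per kilobase of exon, the ratio of Itga2b to Itgb3 was 0.481 to 0.762 in calvaria and 0.255 to 0.589 in femur. Summed platelet markers ran from 1141 to 2330 CPM in calvarial libraries, against 536 to 1255 CPM in femur libraries, with 4 of 10 called higher, and summed osteoclast markers from 2022 to 4083 CPM, against 1083 to 2467 CPM, with 5 of 8 called higher. No gene of either list was called lower in calvaria against femur. In parietal bone alone against femur, 1 of 10 platelet markers was lower and 3 were higher. The part of these cells in the level of Itgb3 was not tested.

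Collagen receptors of the β1 class were lower in calvaria for 3 of 4 subunits, beside 31.4% of all genes. Itga2 encodes α2, the collagen receptor subunit of platelets, epithelia and some mesenchymal cells. It had 4.78, 4.78 and 5.76 CPM in frontal bone and 4.59 and 6.31 CPM in parietal bone, against 127, 90.3 and 62.8 CPM in femur. This was the largest difference among integrin subunits, 17.7-fold lower in calvaria (a log2 fold change of -4.15 ± 0.22 and an adjusted p of 8.12e-08), and the spread within calvaria was small beside it. Itga11, the α11 subunit of fibroblasts and bone-forming cells, had 8.61, 14.2 and 6.18 CPM in frontal bone and 12.9 and 7.76 CPM in parietal bone, against 32, 31.2 and 33.6 CPM in femur, which was 3.19-fold lower (a log2 fold change of -1.67 ± 0.24 and an adjusted p of 9.31e-05). Itga10, the α10 subunit best known from cartilage, had 4.54, 6.6 and 4.91 CPM in frontal bone and 5.5 and 4.95 CPM in parietal bone, against 9.97, 9.25 and 6.88 CPM in femur, with a log2 fold change of -0.71 ± 0.22 and an adjusted p of 0.0137. That call was lost without femur library 2 (-0.66, adjusted p = 0.0545). Of the exon bases of Itga10, 33.5% lie under Gm42957 on the same strand, which is not in the count table. Itga1, the α1 subunit of smooth muscle and capillary cells, had 15.7, 30.8 and 20.1 CPM in frontal bone and 28.9 and 27.2 CPM in parietal bone, against 34.6, 31.2 and 27.3 CPM in femur, with a log2 fold change of -0.31 ± 0.20 and an adjusted p of 0.201.

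Laminin receptor subunits were lower in calvaria for 2 of 4, beside 31.4% of all genes. Itga3, an α3 subunit of epithelia and other adherent cells, had 1.55, 2.29 and 2.95 CPM in frontal bone and 1.91 and 1.65 CPM in parietal bone, against 11.7, 8.59 and 6.07 CPM in femur, 4.32-fold lower in calvaria (a log2 fold change of -2.11 ± 0.28 and an adjusted p of 5.42e-05). Itga7, the laminin receptor subunit of muscle, had 1.31, 0.669 and 0.421 CPM in frontal bone and 0.535 and 0.485 CPM in parietal bone, against 10.8, 9.63 and 4.67 CPM in femur, with a log2 fold change of -3.67 ± 0.38 and an adjusted p of 7.94e-06. In calvaria it rested on 33 counts over 5 libraries, against 205 counts over 3 femur libraries. Skeletal muscle markers were low in every library, with 3 of 10 tested, 2 of them higher in calvaria, and summed levels of 14.1 to 26.8 CPM in calvaria and 3.61 to 5.85 CPM in femur. Itga6, the α6 subunit of platelets, endothelium and stem cells, had 46, 42.6 and 27.7 CPM in frontal bone and 36.6 and 25.2 CPM in parietal bone, against 43.5, 40.1 and 52.4 CPM in femur, with a log2 fold change of -0.39 ± 0.19 and an adjusted p of 0.0963. Itgb4, the β4 subunit of epithelial hemidesmosomes, had 0.382 to 1.05 CPM in calvarial and 0.688 to 1.63 CPM in femur libraries.

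Receptors for fibronectin and related ligands with the RGD motif (the residues that many integrins recognize) held the most abundant matrix subunits. Itgb1, the β1 subunit and common partner of the collagen, laminin and fibronectin receptors, had 314, 489.6 and 375 CPM in frontal bone and 617 and 546 CPM in parietal bone, against 1268, 1025 and 855 CPM in femur. Calvarial libraries lay below femur libraries without overlap, and the difference was a log2 fold change of -1.13 ± 0.16 and an adjusted p of 9.89e-05. Itgav, the αv subunit that binds osteopontin, vitronectin and latent TGF-beta, had 50.8, 66.4 and 52.5 CPM in frontal bone and 64 and 74.9 CPM in parietal bone, against 313, 246 and 208 CPM in femur, 4.07-fold lower in calvaria (a log2 fold change of -2.03 ± 0.15 and an adjusted p of 6.85e-07). Of the exon bases of Itgav, 5.9% lie under Gm13684 on the other strand. Itga5, the α5 subunit of the main fibronectin receptor, had 41.6, 40.4 and 33.1 CPM in frontal bone and 22.9 and 22.5 CPM in parietal bone, against 115, 95 and 125 CPM in femur, with parietal bone lowest, frontal bone between and femur highest, and a log2 fold change of -1.92 ± 0.13 and an adjusted p of 3.26e-07 for calvaria. Itga9, the α9 subunit that binds tenascin C and VCAM-1, had 4.78, 9.37 and 14.9 CPM in frontal bone and 10.7 and 10.8 CPM in parietal bone, against 22.4, 20.4 and 26.1 CPM in femur, with a log2 fold change of -1.18 ± 0.27 and an adjusted p of 0.00249.

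Itgb5, the β5 partner of αv, had 60.8, 80.8 and 60.1 CPM in frontal bone and 78 and 66.1 CPM in parietal bone, against 77.4, 58.1 and 71.1 CPM in femur, and the bones overlapped fully, with a log2 fold change of 0.02 ± 0.15 and an adjusted p of 0.914. Itgb8, the β8 subunit that helps to activate latent TGF-beta, was low everywhere, with 0.281 to 2.13 CPM in calvarial and 3.09 to 4.81 CPM in femur libraries, with a log2 fold change of -1.40 ± 0.38 and an adjusted p of 0.00735. Itga8, the nephronectin receptor subunit, had 1.54 to 3.15 CPM in calvarial and 1.98 to 3.03 CPM in femur libraries, with a log2 fold change of -0.10 ± 0.34 and an adjusted p of 0.822. Itgb6, an epithelial subunit, had 0 to 0.97 CPM in calvarial and 0.344 to 1.17 CPM in femur libraries and was not tested.

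**Figure D3:**
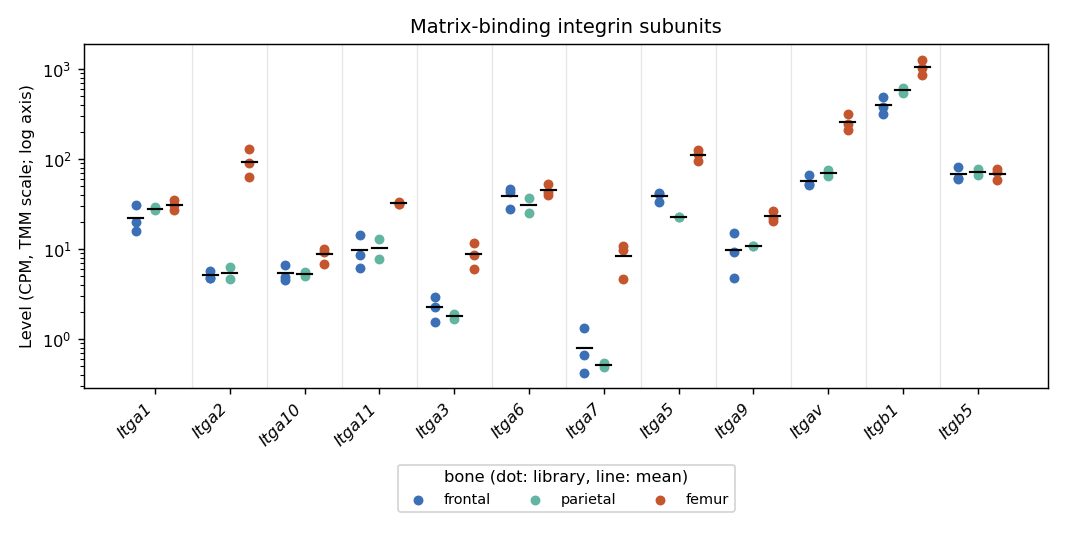
Levels of the matrix-binding integrin subunits whose mean reaches 5 CPM in a bone (y axis, CPM on a log scale), each dot being a library and each line a bone's mean, with frontal and parietal bone left of femur. Itga2, Itga11, Itga3, Itga7, Itga5, Itgav and Itgb1 are lower in every calvarial library than in any femur library, while Itgb5, Itga1 and Itga6 overlap.

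Of 9 tested laminin chains, 7 were lower in calvaria, where 31.4% of all genes were. Their median log2 fold change was -1.65, beside -0.39 for the 25 tested integrin subunits and 0.01 for all genes. Lamc3, the γ3 chain, which is less widespread than γ1, had 2.87, 3.54 and 3.93 CPM in frontal bone and 1.76 and 2.33 CPM in parietal bone, against 95.6, 84.7 and 83.5 CPM in femur. This was the largest difference of any member, 33.2-fold lower in calvaria (a log2 fold change of -5.05 ± 0.16 and an adjusted p of 7.41e-09), and the femur libraries lay close together. Of its exon bases, 6.27% lie under Gm13441 on the other strand. Lamc1, the γ1 chain found in most laminins, had 12.9, 16.6 and 9.97 CPM in frontal bone and 13.1 and 17.8 CPM in parietal bone, against 84.4, 66.2 and 74.8 CPM in femur, 5.24-fold lower (a log2 fold change of -2.39 ± 0.17 and an adjusted p of 5.96e-07). Every calvarial library lay below all 3 femur libraries for both chains.

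Among β chains, Lamb2 encodes β2, the chain of vessel walls, the kidney filter and the nerve-muscle synapse. It had 12, 25 and 6.46 CPM in frontal bone and 13.8 and 10.8 CPM in parietal bone, against 218, 169 and 182 CPM in femur, 14.0-fold lower in calvaria (a log2 fold change of -3.81 ± 0.32 and an adjusted p of 5.38e-06). Lamb1, the β1 chain found in many laminins, had 5.38, 8.89 and 6.6 CPM in frontal bone and 9.48 and 6.98 CPM in parietal bone, against 32.2, 20.9 and 19.4 CPM in femur, with a log2 fold change of -1.65 ± 0.22 and an adjusted p of 5.97e-05. Lamb3 encodes β3, a partner of α3 in epithelial laminin. It had 10.2, 6.88 and 12.5 CPM in frontal bone and 8.1 and 7.86 CPM in parietal bone, against 5.5, 5.48 and 8.87 CPM in femur, with a log2 fold change of 0.41 ± 0.25 and an adjusted p of 0.177.

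Among α chains, Lama4 encodes α4, the chain of vessel and fat cell basement membranes. It had 7.05, 14.1 and 9.27 CPM in frontal bone and 14.4 and 17.2 CPM in parietal bone, against 152, 127 and 126 CPM in femur, 10.6-fold lower in calvaria (a log2 fold change of -3.41 ± 0.19 and an adjusted p of 8.8e-08). Lama2, the α2 chain of muscle and nerve, had 1.55, 3.06 and 2.53 CPM in frontal bone and 3.9 and 3.49 CPM in parietal bone, against 6.71, 4.91 and 6.53 CPM in femur, with a log2 fold change of -1.01 ± 0.26 and an adjusted p of 0.00522. Lama5, the α5 chain of many adult basement membranes, was low throughout, with 0.562 to 1.53 CPM in calvarial and 2.64 to 3.44 CPM in femur libraries (a log2 fold change of -1.53 ± 0.38 and an adjusted p of 0.00447). Lama3, the α3 chain of epithelial laminin, held 0 counts in frontal libraries 1 and 2 and reached at most 1.75 CPM in a calvarial library and 1.55 CPM in a femur library, with a log2 fold change of -1.23 ± 0.83 and an adjusted p of 0.223. Lama1, the α1 chain of early embryos, held 11 counts over calvaria and 17 over femur and was not tested.

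**Figure D4:**
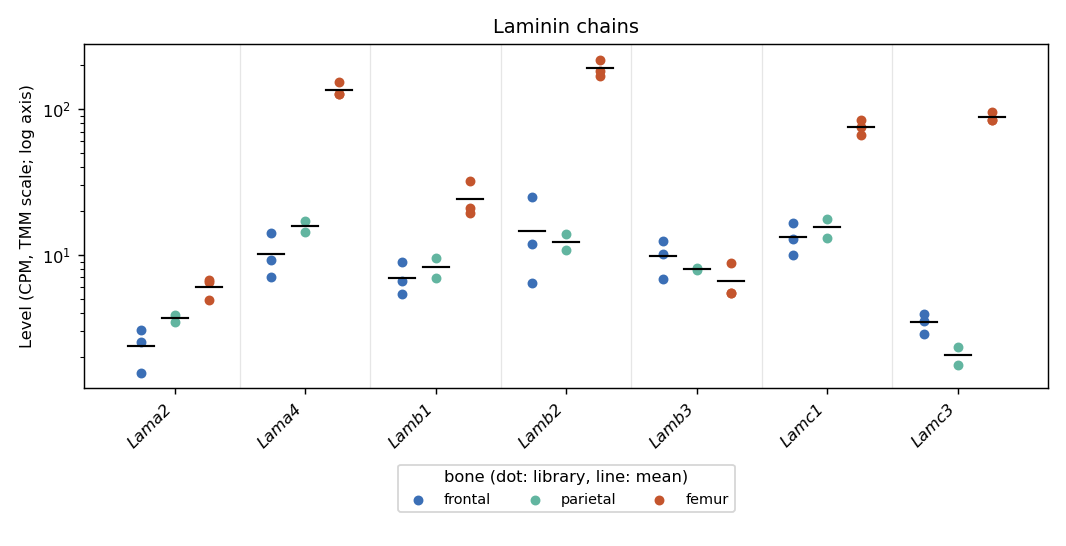
Levels of the laminin chains whose mean reaches 5 CPM in a bone (y axis, CPM on a log scale), each dot being a library and each line a bone's mean, with frontal and parietal bone left of femur. For every chain shown other than Lamb3, all calvarial dots lie under all femur dots, and Lamc3, Lamb2 and Lama4 are the farthest apart.

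Markers of other cells, among them cells known for basement membranes, went in both directions. Summed endothelial markers were 261 to 354 CPM in calvarial libraries, against 640 to 761 CPM in femur libraries, and 11 of 12 were lower in calvaria, with a median log2 fold change of -1.42. Summed pericyte and smooth muscle markers were 88.8 to 142 CPM in calvaria, against 371 to 621 CPM in femur (4 of 7 tested genes lower and 1 higher), and summed chondrocyte markers 22.8 to 36.3 CPM, against 298 to 846 CPM (5 of 6 lower). Summed marrow stroma and adipocyte markers lay on the other side, at 1585 to 2262 CPM in calvaria, against 884.8 to 1085 CPM in femur (4 of 6 tested genes higher and 1 lower). Summed Schwann cell markers overlapped, at 27.4 to 46.2 CPM in calvaria, against 30.3 to 41.5 CPM in femur (1 of 4 higher and 1 lower), and the skeletal muscle markers given above were higher for 2 of 3. Of 6 epithelial genes, the keratins Krt5, Krt14 and Krt8 held at most 6 counts over a group, with no Krt5 count in calvaria, while Epcam averaged 19.6 ± 8.73 CPM (SD, n = 5), against 456 ± 111 CPM in femur (SD, n = 3). Summed osteoblast markers were 3528 to 19200 CPM in calvaria, against 41110 to 57800 CPM in femur (7 of 9 lower). Summed markers of periosteum, tendon and fibroblasts were 122 to 234 CPM, against 395 to 499 CPM (1 of 6 tested genes lower). The lower gene was Postn, also a matrix ligand of integrins, which made up most of these sums. It averaged 114 ± 39.2 CPM in calvaria (SD, n = 5), against 386 ± 52.8 CPM in femur (SD, n = 3). The sums therefore do not describe the other genes of this list. The part of these cells, or of osteocytes, in the members' levels was not tested.

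Per kilobase of exon, the makeup of each class differed between the bones. These shares are descriptions with no test. Itgb1 made up 25.6 to 50.01% of the summed β subunit level in calvarial libraries and 51.7 to 69.7% in femur libraries. Itgb2 made up 22.7 to 36.6% in calvaria and 8.59 to 18.3% in femur. In frontal libraries 1 and 4, Itgb2 exceeded Itgb1, with ratios per kilobase of 1.41 and 1.10, and in femur the ratio was 0.123 to 0.353. Among α subunits, Itgam made up 47.2 to 55.5% in calvaria and 20.9 to 34.9% in femur, the highest share in every library. With the longest transcript as length that order turned in femur library 1, where Itgam was at 17.6% and Itgav at 24.3%. Itgav made up 3.53 to 8.62% in calvaria and 10.7 to 20.3% in femur, Itga5 4.52 to 6.53% in calvaria and 13.6 to 16.2% in femur, and Itga2b 9.45 to 21.6% in calvaria and 9.40 to 17.9% in femur, so the order after Itgam differed between femur libraries. The ratio of Itgav to Itgb1 was nearly the same in the 3 femur libraries, at 0.0912 to 0.0938, and lower in calvaria, at 0.0394 to 0.0614, while the ratio of Itga5 to Itgb1 overlapped, at 0.0306 to 0.109 in calvaria and 0.0749 to 0.121 in femur.

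Of the γ chains Lamc1 and Lamc3, Lamc1 had the higher level per kilobase in every calvarial library and Lamc3 in every femur library. The ratio of Lamc3 to Lamc1 was 0.178 to 0.536 in calvaria and 1.52 to 1.74 in femur. Lamb2 made up 89.8 to 90.5% of the β level in femur, against 29.4 to 68.0% in calvaria, where Lamb3 made up 17.2 to 52.2%. Lama4 was the main α chain in every bone, at 72.0 to 79.8% in calvaria and 93.3 to 93.5% in femur.

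**Figure D5:**
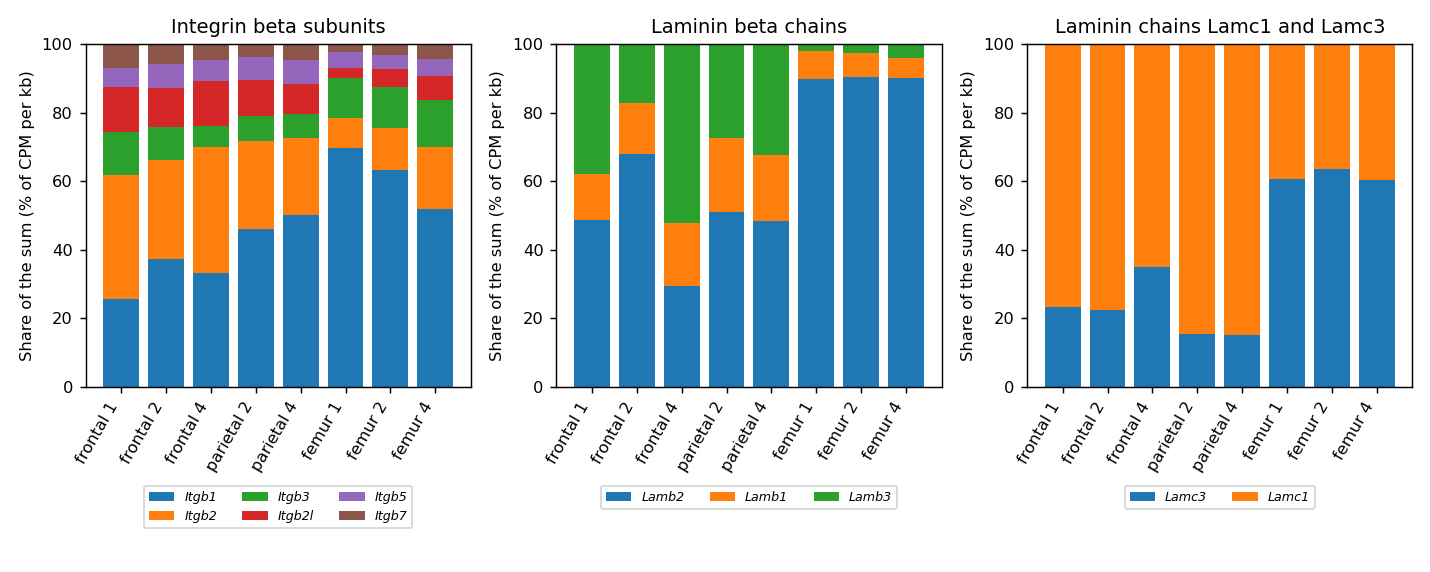
Shares of the summed level per kilobase of exon (y axis, percent) held by integrin β subunits, laminin β chains and, of their sum alone, Lamc1 and Lamc3 in each library, with frontal and parietal libraries left of femur; subunits under 2% in both calvaria and femur are not drawn. Itgb1, Lamb2 and Lamc3 take larger shares in each femur library than in any calvarial library.

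Proteins that integrins act through were read from lists of pathway genes, of which the 4 with the smallest p are named. Of 28 tested adaptors and kinases of adhesion complexes, 20 were lower and 4 were higher in calvaria, with a median log2 fold change of -1.01. Beside this list and those below, 31.4% of all genes were lower and 29.6% higher. Kank1, which links adhesions to microtubules, averaged 18.3 ± 3.11 CPM in calvaria and 189.9 ± 39.1 CPM in femur (log2 fold change -3.35, adjusted p = 5.13e-08; here and below, means ± SD are over 5 calvarial and 3 femur libraries), and its relative Kank2 averaged 3.34 ± 0.673 CPM in calvaria and 17.1 ± 1.5 CPM in femur (log2 fold change -2.41, adjusted p = 8.82e-07). Actn4, an actin crosslinker, averaged 205 ± 44.3 CPM in calvaria and 1017 ± 154 CPM in femur (log2 fold change -2.37, adjusted p = 1.87e-07). Ptk2, the focal adhesion kinase, averaged 13.8 ± 2.65 CPM in calvaria and 69.5 ± 15 CPM in femur (log2 fold change -2.30, adjusted p = 5.37e-07). Ilk, the integrin-linked kinase, held 10 counts over calvaria and 11 over femur and was not tested. It is named although the rule for naming did not choose it. Overlap with other genes was worked out for members only, so these counts may not show the level of Ilk.

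Activators and adaptors of integrins in blood cells were higher in calvaria for 7 of 10 genes and lower for 2, with a median log2 fold change of 0.82. Cytip, which restrains adhesion of activated leukocytes, averaged 274 ± 33 CPM in calvaria and 139 ± 17.1 CPM in femur (log2 fold change 0.99, adjusted p = 3.22e-05). Skap2, an adaptor of myeloid cells, averaged 149.9 ± 14.5 CPM in calvaria and 83.6 ± 6.47 CPM in femur (log2 fold change 0.86, adjusted p = 2.98e-05). Apbb1ip, which brings talin to integrins, averaged 32.1 ± 9.24 CPM in calvaria and 17.3 ± 2.2 CPM in femur (log2 fold change 0.77, adjusted p = 0.00132). Ptk2b, the blood cell relative of the focal adhesion kinase, was lower in calvaria, averaging 55.5 ± 15.9 CPM in calvaria and 80.9 ± 8.78 CPM in femur (log2 fold change -0.67, adjusted p = 0.000341).

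Ligands in the matrix were lower for 11 of 14 tested genes, with 1 higher and a median of -1.37. Fn1 (fibronectin) averaged 76.4 ± 15.1 CPM in calvaria and 228 ± 27.2 CPM in femur (log2 fold change -1.64, adjusted p = 7.23e-07). Ccn1 and Ccn2, secreted proteins that bind several integrins, averaged 459 ± 27.1 CPM in calvaria and 1481 ± 319 CPM in femur (log2 fold change -1.70, adjusted p = 1.29e-06) and 504 ± 36.1 CPM in calvaria and 1554 ± 192 CPM in femur (log2 fold change -1.62, adjusted p = 7.22e-07). Npnt (nephronectin), the ligand of the α8 integrin, averaged 5.36 ± 1.44 CPM in calvaria and 20.9 ± 1.75 CPM in femur (log2 fold change -1.93, adjusted p = 5.93e-06). Among 7 tested ligands on cell surfaces, 4 were lower and 1 was higher. Jam2 and Jam3, junction proteins that bind leukocyte integrins, averaged 31.3 ± 12.9 CPM in calvaria and 431 ± 139 CPM in femur (log2 fold change -3.76, adjusted p = 8.01e-07) and 14 ± 4.1 CPM in calvaria and 113 ± 28 CPM in femur (log2 fold change -2.98, adjusted p = 1.07e-07). F11r, of the same family, averaged 29.2 ± 3.91 CPM in calvaria and 56.2 ± 7.18 CPM in femur (log2 fold change -0.96, adjusted p = 0.000113), and Icam2, a ligand of the αL integrin on vessels and platelets, was higher in calvaria, averaging 29.2 ± 1.85 CPM in calvaria and 15.2 ± 2.64 CPM in femur (log2 fold change 0.95, adjusted p = 0.00027). Vcam1, the ligand of α4 integrins, averaged 465 ± 66.7 CPM in calvaria and 427 ± 9.04 CPM in femur, without passing the test (log2 fold change 0.15, adjusted p = 0.29), and is named although the rule for naming did not choose it.

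Basement membrane partners of laminins were lower for 9 of 11 tested genes, with a median of -2.50. Dag1 (dystroglycan), a laminin receptor, averaged 24.3 ± 4.77 CPM in calvaria and 152 ± 26 CPM in femur (log2 fold change -2.68, adjusted p = 1.15e-07). Nid1 (nidogen), which bridges laminin to collagen IV, averaged 21.3 ± 4.79 CPM in calvaria and 64.2 ± 2.1 CPM in femur (log2 fold change -1.64, adjusted p = 2.24e-06). Col4a1 averaged 54.5 ± 19 CPM in calvaria and 314 ± 41.9 CPM in femur (log2 fold change -2.50, adjusted p = 5.83e-06), and Col18a1 averaged 4.57 ± 1.68 CPM in calvaria and 26.7 ± 2.52 CPM in femur (log2 fold change -2.50, adjusted p = 4.5e-06), both collagen chains of basement membranes. Of 8 membrane proteins that associate with integrins, 3 were higher and 4 were lower. Cd47 averaged 674 ± 127 CPM in calvaria and 374 ± 75.8 CPM in femur (log2 fold change 0.80, adjusted p = 0.000737). Cd9, Cd63 and Slc3a2 were lower, Cd9 averaging 553 ± 49.7 CPM in calvaria and 1448 ± 237 CPM in femur (log2 fold change -1.37, adjusted p = 3.61e-06), Cd63 813 ± 182 CPM in calvaria and 1553 ± 198 CPM in femur (log2 fold change -0.90, adjusted p = 7.06e-05) and Slc3a2 178 ± 43.4 CPM in calvaria and 449.9 ± 44.1 CPM in femur (log2 fold change -1.43, adjusted p = 9.48e-07).

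Each skull bone was then set against femur alone. These comparisons share the femur libraries. In frontal bone, 4 members were higher and 18 lower than in femur (27.2% and 28.5% of all genes, 55.7% called in all), with a median log2 fold change of -1.05. With the length and GC trend removed, 8 were higher and 16 lower, and the median was -0.51, beside 0.11 for all genes. Itga4, Itgb2, Itgal and Itgb2l were higher in frontal bone, with log2 fold changes of 1.17 (adjusted p = 7.15e-05), 0.91 (0.00375), 0.89 (0.00359) and 0.86 (0.0122). Frontal libraries did not overlap femur for any of these. In parietal bone, 1 member was higher and 16 lower than in femur (27.1% and 28.6% of all genes, 55.7% in all), with a median of -0.78. With the length and GC trend removed, 6 were higher and 13 lower, and the median was -0.07, beside 0.08 for all genes. The member that was higher was Itga4, at 0.66 (adjusted p = 0.00576), and without parietal library 4 it was 0.56 (0.0642). Itgb2, Itgb2l and Itgal had parietal log2 fold changes of 0.43 (0.141), 0.50 (0.142) and 0.26 (0.361). Without femur library 4, Itgb2 (0.73, adjusted p = 0.00591) and Itgb2l (0.80, 0.0171) passed the test in parietal bone.

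Several matrix members with large differences passed the test in each skull bone. Lamc3 was at -4.67 in frontal bone and -5.43 in parietal bone against femur, Itga2 at -4.19 and -4.10, Lamb2 at -3.68 and -3.94, Lama4 at -3.72 and -3.10, and Itgav at -2.17 and -1.88. Itgb8 and Lama2 passed in frontal bone, at -1.89 (adjusted p = 0.00441) and -1.32 (0.00308), and missed the threshold in parietal bone, at -0.91 (0.117) and -0.70 (0.0839). Their frontal-to-parietal differences were -0.98 (0.235) and -0.62 (0.243), so the bones were not shown to differ. Parietal calls of Itga9, Itga10, Itgb1 and Lama5 were lost when single libraries were left out. Without parietal library 4, they were at -1.14 (0.0732), -0.70 (0.148), -0.81 (0.0504) and -1.28 (0.121), and 12 members were lower in place of 16. Without parietal library 2, Itga9 (-1.12, 0.0824), Itga10 (-0.84, 0.101) and Lama5 (-1.74, 0.0643) were also lost. Without femur library 1, Itga10 (-0.67, 0.079) and Lama5 (-1.37, 0.0548) were, and without femur library 2, Itga10 (-0.68, 0.0966). In frontal bone, the call of Itga10 was lost without frontal library 1 (-0.58, 0.104), frontal library 4 (-0.62, 0.0852), femur library 1 (-0.60, 0.0919) or femur library 2 (-0.64, 0.0905).

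Frontal bone was set against parietal bone in the same fit. At an adjusted p under 0.05, 1 of 34 members was higher and 0 were lower in frontal bone by edgeR, where 3.91% and 3.29% of all genes were (7.21% in all). DESeq2 called 1 member higher and 0 lower, where it called 7.65% and 6.69% of all genes. At an unadjusted p under 0.05 in edgeR, 5 members were higher and 2 lower. The share of all genes at that level was not worked out. Itga5, the fibronectin receptor subunit, averaged 38.4 ± 4.58 CPM in frontal bone (SD, n = 3) and 22.7 ± 0.248 CPM in parietal bone (SD, n = 2). All 3 frontal libraries lay above both parietal ones, with a log2 fold change of 0.76 ± 0.17 (adjusted p = 0.0324). The same value is the difference between its frontal and its parietal fold change against femur, -1.53 and -2.30. The call was lost without frontal library 1 (0.70, 0.13), parietal library 2 (0.81, 0.158), parietal library 4 (0.79, 0.227) or femur library 2 (0.76, 0.0574). Leukocyte integrins had positive frontal-to-parietal log2 fold changes for all 8 tested subunits, from 0.01 for Itgax to 1.04 for Itgad, and none of the 8 passed the test. The share of all genes with a positive value was not worked out, so this only describes these subunits. Median values of markers were -0.14 for granulocytes, -0.42 for monocytes and macrophages, -0.16 for B cells and 0.17 for T and NK cells.

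Of 78 tested pathway genes, 6 were called between frontal and parietal bone, 7.69%, which is near the 7.21% of all genes. No gene at all was called in this comparison under the replicate block or without frontal library 1, parietal library 2, parietal library 4 or femur library 2, so all 6 calls were lost there. All 6 were also lost with the length and GC trend removed, and 3 of them without frontal library 4. The actin crosslinker Actn1 was higher in frontal bone by 0.83 on the log2 scale (adjusted p = 0.0395), and Sharpin, an inhibitor of integrin activation, by 0.84 on the log2 scale (adjusted p = 0.0388). Ptk2b was higher by 0.79 on the log2 scale (adjusted p = 0.0281), Apbb1ip by 0.73 on the log2 scale (adjusted p = 0.0457) and Slc3a2, which binds β integrin tails, by 0.65 on the log2 scale (adjusted p = 0.0324). Spp1 (osteopontin), an αv integrin ligand, was lower in frontal bone, at 8382 ± 2489 CPM (SD, n = 3), against 17470 ± 184 CPM in parietal bone (SD, n = 2), with a log2 fold change of -1.06 (adjusted p = 0.0403).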

How the data were processed

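RNA was sequenced from 8 libraries of osteocyte-enriched bone (total RNA, Nextera XT, paired reads of 37 bases, per the labels' protocols). The authors deposited raw counts per gene (43438 rows, of which 92 are spike-ins, left out here). Per the submitters' processing notes, the builds were GRCm38.p3 and mm10, and the tools included the aligner STAR 2.5.2a with limma, edgeR and DESeq2. What counted the reads, by which strand setting and annotation, is not given in the sources used here.

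The test was that of edgeR 4.0.16 under R 4.3.3 (filterByExpr, TMM, robust quasi-likelihood F test, 3 bones as groups, 5 residual degrees of freedom, biological coefficient of variation 18.6%). Benjamini-Hochberg adjustment ran over 15511 genes, and calls were made at an adjusted p under 0.05. Each standard error (SE) is the fold change divided by the root of its F statistic. On simulated counts, 80% of 2-fold and 99% of 4-fold changes between calvaria and femur were recovered. For 2-fold changes the share was 69% for frontal bone against femur, 64% for parietal bone against femur and 61% for frontal against parietal bone. Of the calls, 3.24 to 7.14% were false. A small set of genes was changed there, as many up as down, and none with few counts. In the data, 61.0% of all genes were called between calvaria and femur. These shares may therefore not hold for the data, or for members with few counts. Replicates of a bone all differed beyond counting noise, with a chi-square of at least 7.16 per degree of freedom. Levels per kilobase use GENCODE M21 exon lengths on GRCm38.

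The members, roles and lists were chosen with earlier results of these data known. Of the 38 members, 1 is not reported here. Members whose mean reaches 5 CPM in a bone have every library's value in the text. The others have a range. Of each pathway list, the 4 genes with the smallest p for calvaria against femur are named, and any called between frontal and parietal bone. Alternatives were DESeq2 1.42.0, limma-voom (limma 3.58.1), other scalings, no filter, a replicate block, a length and GC trend, the longest transcript as length, and leaving out each library.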

Additional observations from a re-analysis of the deposited data

Results flagged for a closer look

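Itga7, the muscle laminin receptor subunit, had 1.31 CPM in frontal library 1, while the other 4 calvarial libraries lay at 0.421 to 0.669 CPM. The gap to the nearest library was 0.723 of the range, above the limit of 0.71 for 5 libraries. Among the 34 tested members examined in calvaria, chance flags about 1 in 20. Calvarial Itga7 rests on 33 counts in all, and every calvarial library lay below the femur libraries.

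Itga5, the fibronectin receptor subunit, differed between frontal and parietal bone in its change against femur. The difference was 0.76 on the log2 scale (edgeR, adjusted p = 0.0324), and all 3 frontal libraries lay above both parietal libraries. It was the 1 member of 34 for which this difference passed the test, where 7.21% of all genes did.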

How the results depend on the processing

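Of the 22 members called between calvaria and femur, 15 were called under every setting. DESeq2, DESeq2-type size factors, limma-voom, library size alone, no filter and the replicate block changed none of these 22 calls. Members called higher in calvaria numbered 7 in place of 4 with the length and GC trend removed, and 1 to 5 with single libraries left out, with 17 to 19 lower. In frontal bone against femur, 7 were higher with no filter and 8 with the trend removed, and 4 to 7 with libraries left out. In parietal bone against femur, 3 were higher with no filter and 6 with the trend removed, and 0 to 3 with libraries left out, with 12 to 18 lower. Between frontal and parietal bone, edgeR called 3 higher and 1 lower with no filter, 0 higher with the trend removed, and 0 to 2 higher and 0 to 2 lower with libraries left out.

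Signs turned for members that had not passed the test, and for Lama5 in parietal bone, which had. With the trend removed, log2 fold changes for calvaria against femur were 0.27 for Itgax, 0.52 for Itga2b, 0.15 for Itga1, 0.043 for Itga6, 0.42 for Itgb4 and 0.071 for Itga8, and Lama5 in parietal bone was at 0.013. With library size alone, Itgax was at 0.060. With single libraries left out, values ran from -0.023 to 0.53 for Itgam, -0.15 to 0.12 for Itgax, -0.18 to 0.41 for Itgad, -0.049 to 0.41 for Itgb7, -0.59 to 0.18 for Itga2b, -0.30 to 0.10 for Itga8 and -0.099 to 0.085 for Itgb5, and from -0.13 to 0.50 for Itgal in parietal bone. With the trend removed, Itgb7 (0.63), Itgb5 (0.56) and Lamb3 (1.21) passed the test in calvaria. The cause was not tested. Library size alone put the median of all genes at 0.16 for frontal bone against femur, beside 0.02 with TMM.

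The replicate block, with the library number as a term, gave 4 higher and 18 lower members for calvaria against femur, and 0 higher and 0 lower between frontal and parietal bone, with Itga5 at 0.72 (adjusted p = 0.105) and Itga10 in parietal bone at -0.72 (0.0697). Deviations of same-numbered libraries from their bone's mean had correlations of -0.103 to 0.145. With 2 or 3 libraries in a bone such deviations are tied to one another. These values therefore cannot tell whether the numbers pair the libraries, and the main fit left the number out. At these depths, members under about 1 CPM rest on few counts, and the smallest group has 2 libraries, so the tests would miss modest differences. Taking the longest transcript as length put Itgb1 at 37.2% of the β level in calvaria and 61.0% in femur, against 38.5% and 61.6% with all exons, and left Lamc1 above Lamc3 in calvaria and below it in femur.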
